A study of Mus musculus with 4 samples.

Results

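AP-1 is a family of dimeric transcription factors, and 10 of its genes were followed here through RNA sequencing of mouse bone-marrow progenitors with and without the chromatin regulator ASXL1. The genes were Fos, Fosb, Fosl1, Fosl2, Jun, Junb, Jund, Atf3, Batf and Batf3, taken by symbol from the names of the single loci in the deposited table. All 10 were found among 17956 single loci, and all 10 passed the filter on low values that left 13764 loci for testing. The 4 libraries, 2 wild-type (WT) and 2 labelled Asxl1-/- (KO), came from C57BL/6 mice and from Lin-Kit+ bone-marrow cells, the fraction that lacks mature lineage markers and carries the Kit receptor. Each library came from total RNA of 2000000 cells. The sources used here do not give the age of the mice, how Asxl1 was deleted or whether animals were pooled.

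AP-1 proteins carry a basic region that contacts DNA and a leucine zipper that joins the partners of a dimer. FOS proteins need a JUN partner to bind DNA, whereas JUN proteins can also pair with each other. Several of the genes, Fos, Fosb, Jun and Atf3 above all, are immediate-early genes: their transcripts appear soon after growth factors, cytokines, stress or handling of cells, and Fos transcripts are short-lived. In marrow the family takes part in the growth and maturation of granulocytes and macrophages, and mice without JUNB in the myeloid lineage develop a myeloproliferative disease.

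Asxl1, the deleted gene, went with the labels of all 4 libraries: it was at 9742 and 9472 in WT and at 146 and 135 in KO. Recovered reads numbered between 46597871 and 83586916 per library, with both KO libraries deeper than both WT libraries. No label says that replicates were separate animals, so p-values measure the spread between these libraries, whose sex-linked transcripts differed within each genotype.

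Of the 10 AP-1 loci, 8 rose in KO and 0 fell, while of all tested loci 20.9% were called, 11.9% as higher and 8.97% as lower (limma, adjusted p under 0.05 by the Benjamini-Hochberg method, two-sided). The 8 were the loci of the 4 FOS genes, the 3 JUN genes and Atf3, with Fosl1 merged with Ccdc85b and Junb with AK006748. Their log2 fold changes ran from 0.58 to 1.70, with adjusted p from 0.00117 to 0.0114, and the median over all 10 was 0.88 against -0.01 over all tested loci. Batf and Batf3 did not pass the test. In 8 of the 10 loci both KO values exceeded both WT values, as they did in 32.5% of tested loci. RNA of bulk cells was measured, so more transcript per cell and more cells of a type with the transcript cannot be told apart.

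The upstream sequences of the genes the results turn on are shown because immediate-early genes are known for sites close to their start that bind CREB, ATF, serum response factor and AP-1 itself. RefSeq promoters (build GRCm38.p6) were matched for 9 of the 10 symbols, and the 250 bases before the start of 5 of them follow, 5′ to 3′ on the strand of the gene, with capitals marking the motif matches. They lie at chr12:85473640-85473889 on the plus strand (Fos), chr7:19310046-19310295 on the minus strand (Fosb), chr4:95052223-95052472 on the minus strand (Jun), chr1:191183334-191183583 on the minus strand (Atf3) and chr12:85686470-85686719 on the plus strand (Batf, which was not called).
Fos: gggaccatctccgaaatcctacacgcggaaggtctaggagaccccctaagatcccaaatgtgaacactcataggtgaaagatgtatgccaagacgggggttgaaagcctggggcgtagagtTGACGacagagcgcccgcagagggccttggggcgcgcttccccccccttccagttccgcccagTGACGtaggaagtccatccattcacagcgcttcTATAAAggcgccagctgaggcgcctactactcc
Fosb: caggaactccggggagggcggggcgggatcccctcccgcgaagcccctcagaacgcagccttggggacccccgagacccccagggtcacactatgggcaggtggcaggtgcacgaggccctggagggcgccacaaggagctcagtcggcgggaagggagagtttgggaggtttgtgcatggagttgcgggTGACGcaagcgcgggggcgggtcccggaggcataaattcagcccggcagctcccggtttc
Jun: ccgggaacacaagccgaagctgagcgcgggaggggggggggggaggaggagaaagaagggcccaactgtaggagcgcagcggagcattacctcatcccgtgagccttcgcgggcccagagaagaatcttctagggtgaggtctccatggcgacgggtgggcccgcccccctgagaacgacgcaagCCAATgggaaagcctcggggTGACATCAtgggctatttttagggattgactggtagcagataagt
Atf3: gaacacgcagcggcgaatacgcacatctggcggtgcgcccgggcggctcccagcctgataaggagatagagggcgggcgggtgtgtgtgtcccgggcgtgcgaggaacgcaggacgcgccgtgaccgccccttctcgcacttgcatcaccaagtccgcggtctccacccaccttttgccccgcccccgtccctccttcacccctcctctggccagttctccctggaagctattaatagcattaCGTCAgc
Batf: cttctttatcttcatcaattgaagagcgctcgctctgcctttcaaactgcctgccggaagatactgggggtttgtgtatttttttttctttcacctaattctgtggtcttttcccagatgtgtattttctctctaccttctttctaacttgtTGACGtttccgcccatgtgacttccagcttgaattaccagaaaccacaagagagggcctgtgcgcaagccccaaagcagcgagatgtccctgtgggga

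Both strands of the 250 bases were searched for 8 motifs. TGACG, the core of the cAMP response element (the full element TGACGTCA contains it), was present in 5 of 9 AP-1 promoters, against 17.8% of all 32851 promoters in the table. It lay at 129 and at 66 bases before the start in Fos, at 60 in Fosb, at 106 in Junb and at 98 in Batf, and on the other strand from 7 to 3 bases before the start in Atf3. TGACATCA, a variant AP-1 site, was found in Jun at 45 bases before the start and in 2.93% of all promoters. The TATA box letters TATAAA were found in Fos (12.4% of all promoters), and CCAAT in Jun and Junb (33.8%). No match in these windows was found for TGACTCA or TGAGTCA (4.46% of all promoters), for TGACGTCA (1.55%), for the CArG box of serum response factor (1.47%) or for TTTCGCGC (0.256%). Sites more than 250 bases before the start, or after it, were not searched, so these absences hold for the windows only. Of the genes that rose, Fos, Fosb, Junb and Atf3 held TGACG, whereas Jun, Jund and Fosl2 did not. Fosl1, which also rose, had no matched promoter and was not searched. Batf and Batf3 were not called, and of these Batf held TGACG and Batf3 did not.

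Fos (chromosome 12, 86814850 to 86818219, mm9, as are all loci below) encodes the founding member of the family. The WT libraries gave normalised read counts of 30528 and 32621, and the KO libraries 50885 and 62622. Both KO libraries lay above both WT libraries, and the log2 fold change was 0.84 ± 0.10 (SE, n = 2 libraries per genotype; limma adjusted p = 0.00488).

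Fosb (chromosome 7, 19888044 to 19895394) encodes a closely related protein, whose truncated form persists after repeated stimulation of neurons. It was measured at 15043 and 16983 in WT and at 33549 and 41693 in KO. The lower KO library was 1.98 times the higher WT library, and the log2 fold change was 1.23 ± 0.11 (limma adjusted p = 0.00225).

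Fosl1 and Fosl2 encode FRA1 and FRA2, which lack the transactivating C-terminus of FOS. The locus of Fosl1 (chromosome 19, 5447697 to 5457549) is merged in the table with Ccdc85b, so its reads cannot be divided between these genes. It was measured at 541 and 559.8 in WT and at 1659 and 1664 in KO, a log2 fold change of 1.59 ± 0.09 (limma adjusted p = 0.00117). The replicates of each genotype lay close together and the groups were well separated. Fosl2 (chromosome 5, 32438844 to 32460212) was measured at 1634 and 1862 in WT and at 5344 and 4463 in KO, a log2 fold change of 1.48 ± 0.11 (limma adjusted p = 0.00165). It was the only one of the 8 whose value was higher in KO replicate 1 than in KO replicate 2.

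Changes of the JUN genes ran from 0.58 to 0.91 on the log2 scale, and those of the FOS genes from 0.84 to 1.59, so the ranges overlap. Jun (chromosome 4, 94715726 to 94718913), the main partner of FOS, was measured at 27909 and 31096 in WT and at 41302 and 46810 in KO, and had the smallest change of the 8, 0.58 ± 0.08 (limma adjusted p = 0.00757). Even so, both KO values exceeded both WT values. Junb (chromosome 8, 87498382 to 87502617), which can restrain JUN activity, was measured at 8605 and 9340 in WT and at 14209 and 14518 in KO, a log2 fold change of 0.68 ± 0.06 (limma adjusted p = 0.00194). Its locus is merged with the cDNA AK006748, and without stated use of strand the reads of these cannot be told apart.

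Jund (chromosome 8, 73221637 to 73224515) encodes the member that most cells express steadily. It stood at 8708 and 11612 in the WT libraries and at 17322 and 20736 in the KO libraries. The WT libraries differed from each other by 1.33 times, yet the groups did not overlap, and the log2 fold change was 0.91 ± 0.15 (limma adjusted p = 0.0114).

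Atf3 (chromosome 1, 192994175 to 193041918), a stress-induced factor that often represses its targets, had the largest log2 fold change of the family. It was measured at 376 and 531 in WT and at 1336 and 1579 in KO, a change of 1.70 ± 0.19 (limma adjusted p = 0.00377). The lower KO value was 2.52 times the higher WT value. Of the 13764 tested loci, called or not and with Atf3 itself counted, 196 (1.42%) had a log2 fold change at least as large. The same count was 232 for Fosl1, 270 for Fosl2, 407 for Fosb and 1471 for Jun.

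**Figure D1:**
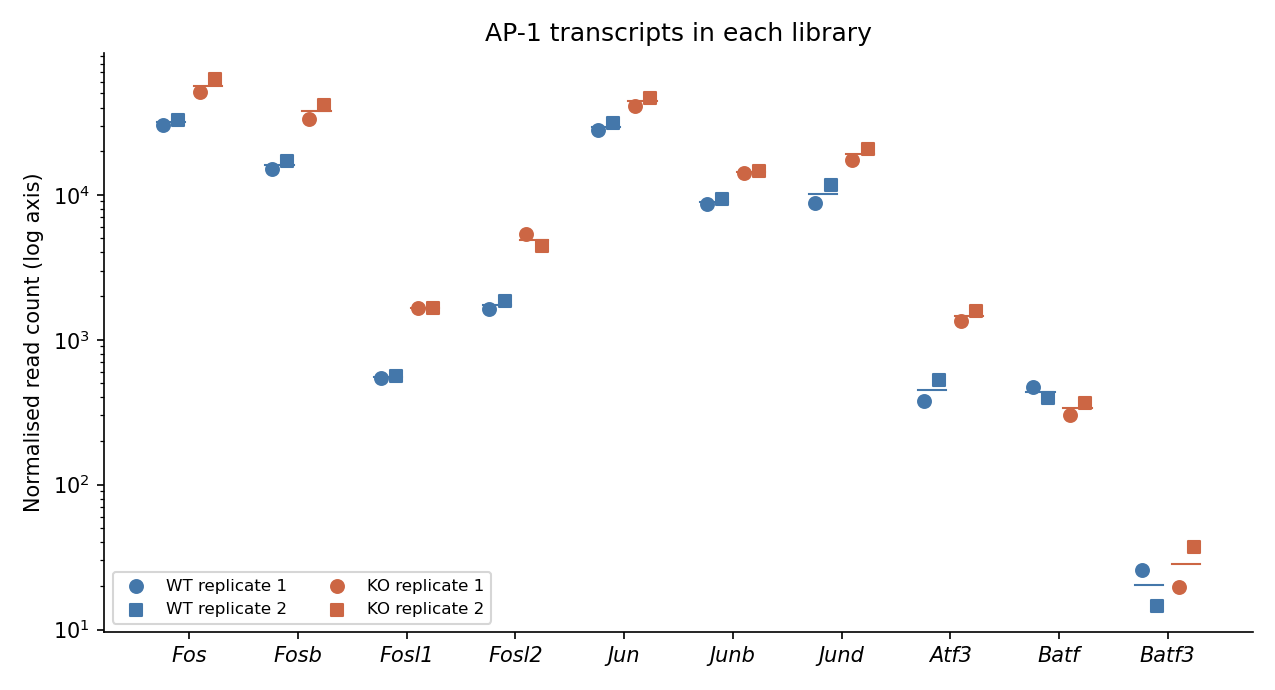
Normalised read count (log axis) of each AP-1 locus in the 4 libraries, with circles for replicate 1, squares for replicate 2 and lines for group means. For Fos, Fosb, Fosl1, Fosl2, Jun, Junb, Jund and Atf3 both KO points lie above both WT points. For Batf both lie below, and for Batf3 the groups overlap.

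BATF and BATF3 lack a transactivation domain, pair with JUN proteins and act with IRF4 or IRF8 in lymphocytes and dendritic cells. Batf (chromosome 12, 87027669 to 87050037) was measured at 474 and 398 in WT and at 305 and 367 in KO. Both KO values were lower, as in 33.6% of tested loci, but the change of -0.38 ± 0.17 did not pass the test (limma adjusted p = 0.157). Batf3 (chromosome 1, 192921758 to 192932822) had few reads: 20 and 12 in WT and 26 and 45 in KO. The exact 95% Poisson intervals of these counts were 12.2 to 30.9, 6.20 to 21.0, 17.0 to 38.1 and 32.8 to 60.2, which cover counting error only. The KO libraries were deeper, so these reads do not compare directly between genotypes. In normalised counts, 25.9 and 14.6 in WT and 19.7 and 37.1 in KO, the groups of Batf3 overlapped (0.45 ± 0.50, limma adjusted p = 0.547). The rate ratio of KO to WT over the summed reads, scaled for depth, had an exact 95% interval of 0.907 to 2.19. The change of Jun, 1.49 times, lies inside this interval, which covers counting error only. A change of that size in Batf3 was thus neither shown nor excluded.

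**Figure D2:**
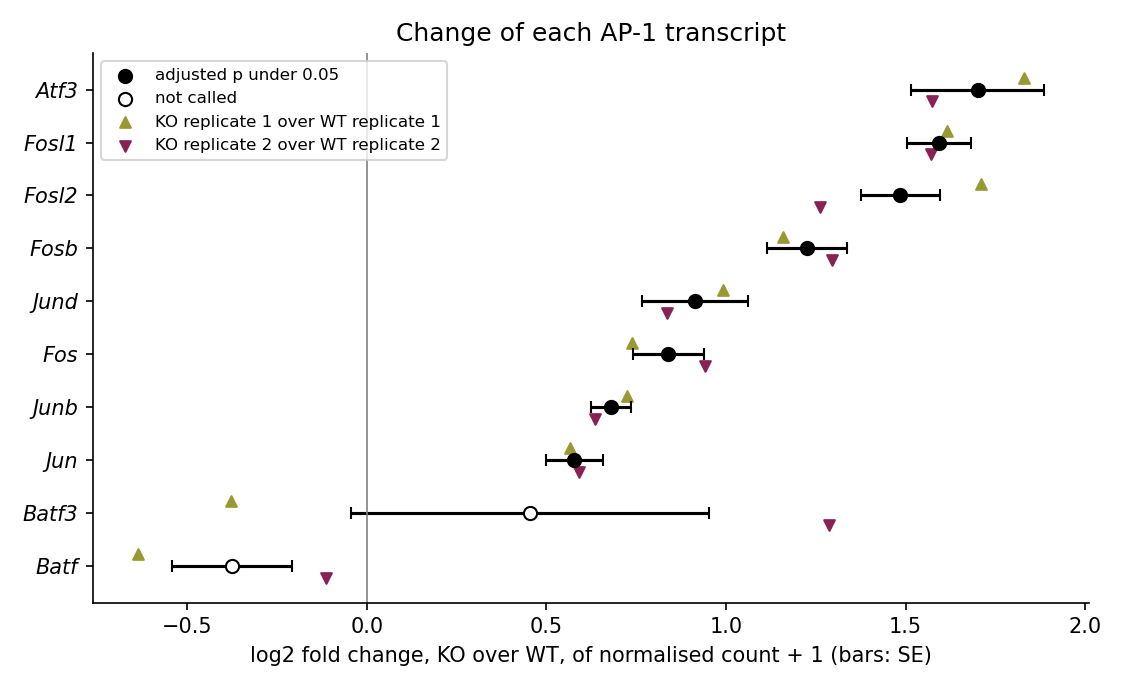
Log2 fold change of each AP-1 locus, KO over WT, with SE (bars) from the fit and the change between same-numbered libraries (triangles). The 8 filled points lie at 0.58 or above, and in each of them both same-numbered comparisons are above 0.

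Same-numbered libraries matched in the sex-linked transcripts. The Xist locus (merged with Tsix) stood at 103006 in WT replicate 1 and 89290 in KO replicate 1, against 2123 and 147 in replicates 2, where the Y-linked Uty stood at 2701 and 2461. All 8 AP-1 loci that rose in KO were higher in WT replicate 2 than in WT replicate 1, and 7 of them were higher in KO replicate 2 than in KO replicate 1, whereas 52.5% and 50.04% of all tested loci were so. The part of sex or of any other difference between the replicate numbers in these values was not tested. Within replicates 1 the KO over WT changes were 0.74 for Fos, 1.16 for Fosb, 1.61 for Fosl1, 1.71 for Fosl2, 0.57 for Jun, 0.72 for Junb, 0.99 for Jund and 1.83 for Atf3. Within replicates 2 they were 0.94, 1.30, 1.57, 1.26, 0.59, 0.64, 0.84 and 1.57, in the same order of genes. All 8 were thus above 0 in both comparisons, while Batf3 was -0.38 in the first and 1.29 in the second.

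**Figure D3:**
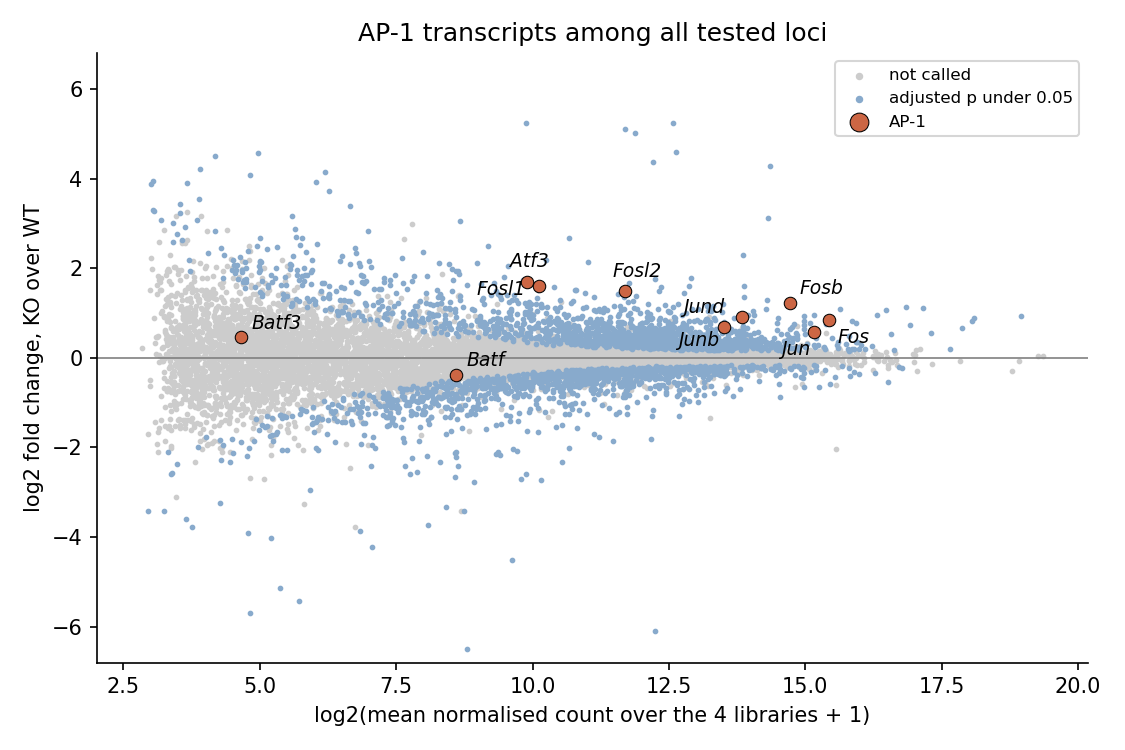
Log2 fold change, KO over WT, against log2 of the mean normalised count + 1 for the 13764 tested loci, with called loci in blue and AP-1 loci in orange. Fos, Jun and Fosb lie far to the right, while Atf3, Fosl1 and Fosl2 lie further left and higher, at changes of 1.48 to 1.70.

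Summed over the 10 loci, AP-1 reads made up 0.155% and 0.173% of the WT libraries and 0.262% and 0.307% of the KO libraries. The summed normalised count was 99430 ± 7901 in WT and 180210 ± 20196 in KO (mean ± SD, n = 2), 1.81 times higher. To compare genes with each other, normalised counts were divided by kb of annotated exon. In WT, Fos led with 14978 ± 702 per kb, followed by Jun with 9251 ± 707, Jund with 6091 ± 1231, Junb with 4960 ± 287 and Fosb with 4234 ± 363. The remaining genes stood far lower, from 456 ± 56.6 for Batf down to 25.3 ± 9.95 for Batf3. No neighbours in the WT order overlapped in their replicate values. In KO the level of Fosb, 9947 ± 1523 per kb, was above that of Junb, 7940 ± 121, and overlapped that of Jund, 11408 ± 1447. Fosl2 (750.2 ± 95.3) and Atf3 (677 ± 79.8), which overlapped each other, were both above Batf (352 ± 46.3), which in WT was above both. The exon lengths come from a later annotation, the merged Fosl1 locus was divided by the exons of both its genes and the Junb locus by those of Junb, so these levels are approximate.

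The balance of FOS and JUN genes moved less than the size of the pool. FOS genes supplied 49.2% and 47.4% of AP-1 reads per kb in WT and 51.5% and 53.4% in KO, and the ratio of FOS to JUN reads per kb stood at 1.003 and 0.930 in the WT libraries and at 1.09 and 1.19 in the KO libraries. Fos itself took 37.0% ± 1.28 in WT and 37.3% ± 1.17 in KO, with overlapping groups. Fosb went from 10.4% ± 0.0450 to 13.8% ± 0.528 and Jun from 22.8% ± 0.115 to 19.2% ± 0.514, and neither pair of groups overlapped. The ratio of Fosb to Fos per kb stood at 0.275 and 0.290 in the WT libraries and at 0.367 and 0.371 in the KO libraries. Atf3 stood at 1.99% and 2.53% of Jun per kb in WT and at 4.79% and 4.995% in KO. These ratios are taken within a library and do not depend on its scaling. They are given as values and were not tested.

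**Figure D4:**
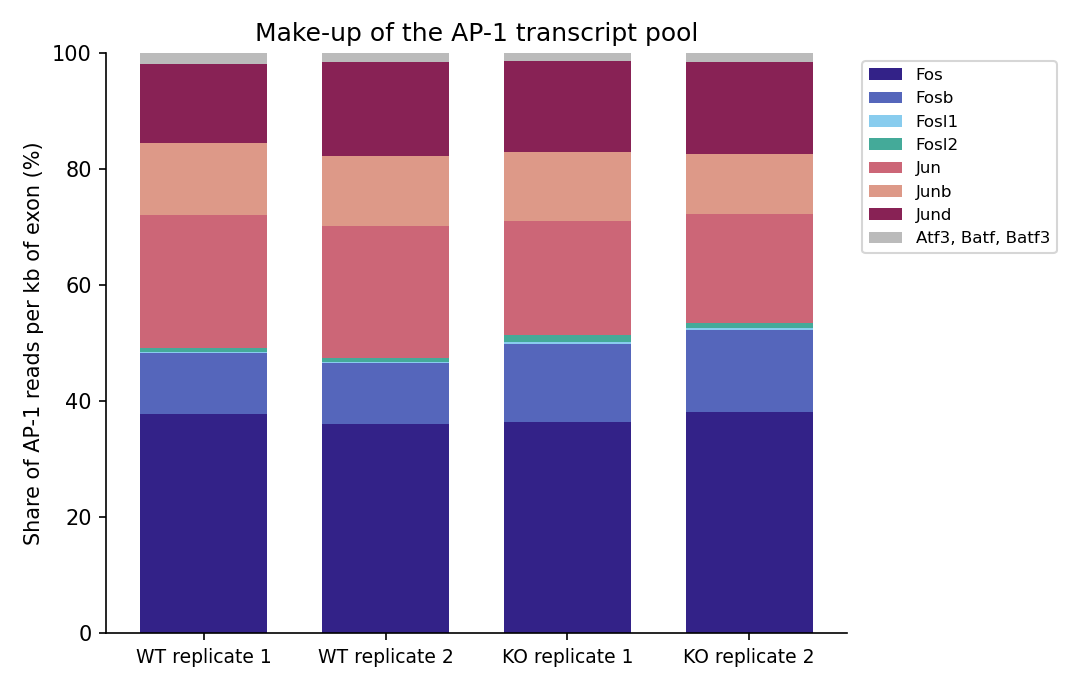
Share of each gene in the AP-1 reads per kb of annotated exon, one stacked bar per library. FOS genes (blue and green) take between 47.4% and 53.4% of each bar, and Fosb is wider in both KO bars than in both WT bars.

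Other factors of the bZIP class (those with the same basic region and leucine zipper), which can share partners or sites with AP-1, were counted as a list. Of 33 listed and tested loci, 11 rose, 3 fell and 19 did not pass, with a median log2 fold change of 0.15. For this list and those that follow, the main test called 11.9% of all tested loci higher and 8.97% lower. The small MAF protein gene Maff rose from 140 ± 3.83 to 386 ± 52.2 (1.45 ± 0.18), and Nfil3, a repressor needed for innate lymphoid cells, from 906 ± 46.8 to 1872 ± 53.2 (1.05 ± 0.09). Maf rose by 0.65 ± 0.11. Batf2, an interferon-inducible relative of Batf, was measured at 31.1 and 26.8 in WT and at 8.34 and 6.60 in KO, on 46 reads in WT and 19 in KO, and fell by 1.83 (adjusted p = 0.0348). Its call was lost with DESeq2 (adjusted p = 0.0851) and without WT replicate 1, WT replicate 2 or KO replicate 2 (adjusted p = 0.174, 0.123 and 0.0728), while that of Maf was lost without either WT library (adjusted p = 0.0895 and 0.0577). Without WT replicate 1, 4 of the list rose and 0 fell, while 4.38% of all tested loci rose and 1.93% fell. Without WT replicate 2, 6 rose and 1 fell, while 5.88% of all tested loci rose and 1.98% fell.

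The kinases and factors that carry signals to the AP-1 genes include the MAP kinases. Of 43 tested loci 11 rose, 2 fell and 30 did not pass, with a median of 0.07. Mapk13, the p38 delta kinase, rose from 1767 ± 23.5 to 4865 ± 412 (1.46 ± 0.08), and Mapk7, the ERK5 kinase, by 0.55 ± 0.08. The chromosome 17 locus that carries the names Rps6ka2, rsk3 and Rps6ka3 rose by 0.48 ± 0.08. It was counted in the list through the name Rps6ka3, as Rps6ka2 is not a listed gene. By contrast, the locus named Rps6ka3 alone was at 3558 ± 19.6 and 3737 ± 15.7 and did not pass. Mapk11, the p38 beta kinase, was measured at 237 and 259.8 in WT and at 114 and 74.3 in KO, and fell by 1.42. The calls of Mapk11 (adjusted p = 0.0696) and of the Rps6ka2 locus (adjusted p = 0.0657) were lost without WT replicate 1, and that of Mapk11 without WT replicate 2 too (adjusted p = 0.0821). The list had 2 rises without WT replicate 1 and 5 without WT replicate 2, with 0 falls in both cases, so the share without WT replicate 1 was near that of all tested loci given above. Without KO replicate 1 it had 6 falls, when 11.2% of all tested loci fell. Srf, the serum response factor, did not pass (0.04 ± 0.05, adjusted p = 0.601).

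Among genes with AP-1 sites described in other systems, 13 of 32 tested loci rose (11.9% of all tested loci) and 1 fell (8.97%). The other 18 did not pass, and the median of the list was 0.34. The urokinase receptor gene Plaur was measured at 2423 and 2909 in WT and at 7433 and 7587 in KO (log2 fold change 1.4997 ± 0.0925), with no overlap. The galectin gene Lgals3 rose by 1.12 ± 0.23, the gelatinase gene Mmp9 by 1.08 ± 0.16 and Ptgs2, which encodes cyclooxygenase-2, by 0.91 ± 0.11. The call of Lgals3 was lost without WT replicate 1 (adjusted p = 0.0886), and the list then had 8 rises and 0 falls. It had 0 falls without WT replicate 2 as well. The list shares 4 loci with the mature neutrophil markers, of which 3 rose. Of the 28 tested loci not shared 10 rose and 1 fell, with a median of 0.28. This split was not planned beforehand.

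Other immediate-early genes and genes that respond to the handling of cells were counted as a list without AP-1 members. Of 33 tested loci 19 rose (11.9% of all tested loci), 4 fell (8.97%) and 10 did not pass, with a median of 0.58. Egr3 was measured at 223 and 213 in WT and at 718 and 631 in KO (1.62 ± 0.14), and the nuclear receptor gene Nr4a1 at 1478 and 1829 in WT and at 4576 and 4311 in KO (1.43 ± 0.11). Of the 6 heat shock genes in the list 0 rose and 3 fell. Hspa1b fell by 1.63 and Hspa1a fell by 1.48 on the log2 scale, with calls lost without WT replicate 2 (adjusted p = 0.0621 and 0.0871), when 0 loci of the list fell. Of the 27 tested loci that are not heat shock genes, 19 rose and 1 fell. This split of the list was not planned beforehand and takes out 3 of its 4 falls. How far handling moved the AP-1 values was not tested, and the labels hold no measure of it.

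**Figure D5:**
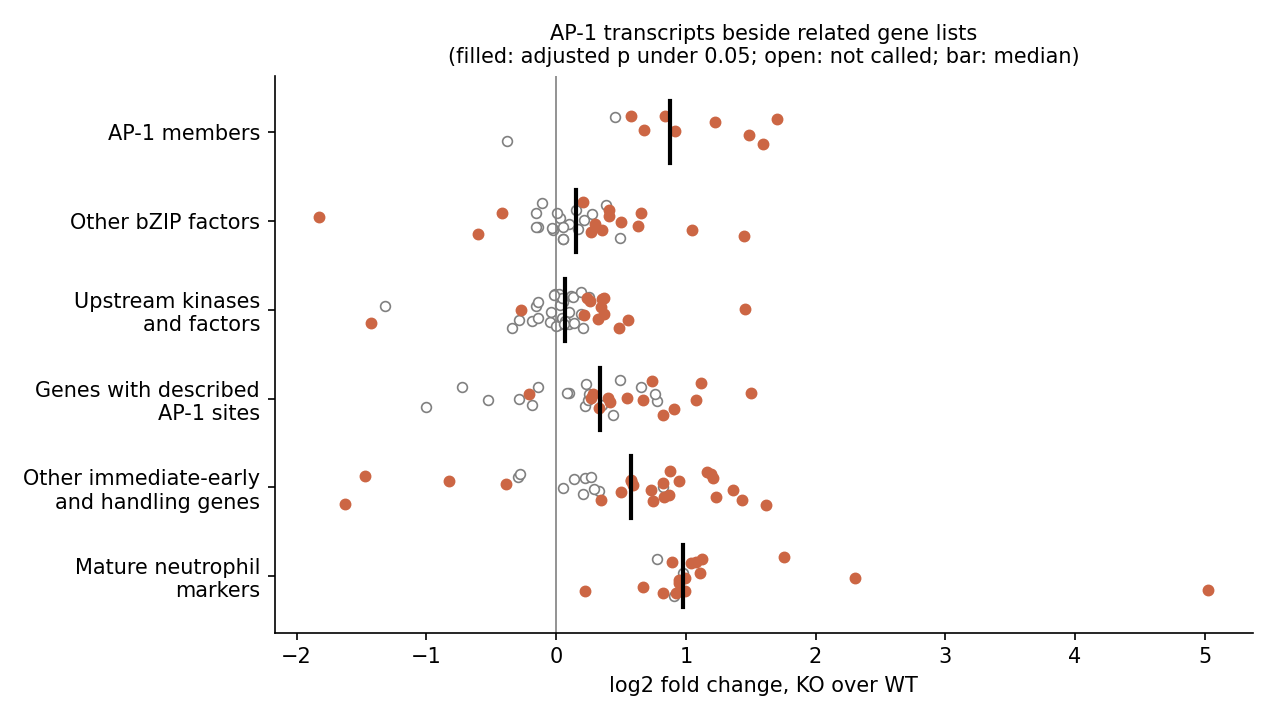
Log2 fold change, KO over WT, of each tested locus in the AP-1 family, 4 related lists and the mature neutrophil markers, with bars at the medians. The AP-1 median is 0.88, that of the other immediate-early and handling genes 0.58 and that of the mature neutrophil markers 0.98, while the upstream kinases centre at 0.07.

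Lists of markers of other cells moved in both directions, and over all tested loci 11.9% rose and 8.97% fell. Of 19 tested mature neutrophil markers 16 rose and 0 fell, and the normalised counts of the list added up to 1101853 and 1227525 in the WT libraries and to 2229206 and 2102050 in the KO libraries. Of 13 tested erythroid markers 7 rose and 0 fell, with sums of 127687 and 145224 in WT and 192189 and 229839 in KO. Megakaryocyte markers summed to 16680 and 18885 in WT and to 65622 and 51915 in KO. Of the 12 tested, 3 rose and 9 did not pass, and their median log2 fold change, 0.48, was smaller than the change of the sum. The lists of B cells (5 of 12), T and NK cells (4 of 12), mast cells and basophils (5 of 9), stroma (2 of 9) and Lin-Kit+ progenitors (3 of 10) had falls and no rises. Monocyte markers, with 2 rises and 5 falls among 15, summed to between 61919 and 64925 in all libraries. No marker locus stood at 0 in all 4 libraries. Kit, which defines the gate, was measured at 17739 and 16149 in WT and at 18483 and 18889 in KO and did not pass. The part of these cells in the AP-1 values was not tested.

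Of the 18 loci next to an AP-1 gene on its chromosome 16 were tested, of which 2 rose and 1 fell, with a median of 0.00, shares near the 11.9% and 8.97% of all tested loci, so the count says nothing particular about the neighbours. Jdp2, which lies between Fos and Batf and encodes a repressor that pairs with JUN, rose from 1480 ± 156 to 2090 ± 32.8 (0.50 ± 0.09, limma adjusted p = 0.0177), and Tmed10 on the other side of Fos fell by 0.22. Both calls were lost without WT replicate 1 (adjusted p = 0.0987 and 0.181), and that of Tmed10 also without WT replicate 2 (adjusted p = 0.0911). Other settings called neighbours that did not pass here: Hook2 next to Junb as lower with upper-quartile and CPM scaling (adjusted p = 0.0495 and 0.0450), Nsl1 next to Batf3 as lower with CPM scaling (adjusted p = 0.0463) and Rtn2 next to Fosb as higher without KO replicate 1 (adjusted p = 0.0377). Fam71a, 5.48 kb from Atf3 on chromosome 1 (192986462 to 192988696), had 1 and 0 reads in WT and 44 and 41 in KO, a rate ratio of 53.5 with an exact 95% interval of 9.34 to 2136 that covers counting error only. It passed the filter on low values through the KO libraries alone. AK021325, on the other side of Atf3, was at 55.7 and 58.5 in WT and at 56.1 and 59.4 in KO.

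The table also has rows that join neighbouring loci, and 12 of them name an AP-1 gene. In 11 of these the reads of the 4 libraries together were at most 8. The joined row of Prdx2 with Junb held 61 and 55 reads in WT and 120 and 163 in KO, and its normalised value lay between 0.640% and 0.926% of that of the Junb locus.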

How the data were processed

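The authors deposited 1 table of library-scaled signal, in which each library's read counts carry a common factor. Every library had 100% of its values on a grid of whole reads (tolerance 0.001 of a read), and division by the grid step recovered the reads (46597871 and 49764454 in WT, 83586916 and 76688583 in KO). A count of 0 allows up to 3 reads. STAR 2.3.1t and mm9 are named, per the submitters' processing notes. The sources used here do not name the counter, its annotation or its use of strand. Intervals and floors cover counting error only.

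AP-1 loci were the rows without a comma whose name holds a member symbol. The test took loci that reached 10 in 2 or more libraries and was run with limma 3.58.1 (mean-variance trend, R 4.3.3) on log2(value + 1), genotype as the only term, adjusted over all 13764 loci at a threshold of 0.05; this scale understates the change of low loci. The members and gene lists were chosen with earlier results of these data known. Named genes were all members, the 4 called loci of each related list with the largest change, the nearest loci on each side of a member, Asxl1 and Kit; Srf and the locus named Rps6ka3 alone were added after their values were seen, as was the motif TGACATCA. Alternatives were pseudocounts of 0.5 and 5, no filter and one of 50, upper-quartile and CPM scaling, edgeR 4.0.16 with TMM, DESeq2 1.42.0 and limma-voom on recovered reads, each library left out, and a replicate block. Exon lengths are from GENCODE M21 and promoters from RefSeq, both of GRCm38, and no coordinates were carried between builds. Symbols of the lists were matched to locus names, with 4 unmatched.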

Additional observations from a re-analysis of the deposited data

How the results depend on the processing

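The 8 rises and 0 falls among the AP-1 loci were found under each of the 14 alternatives, with the log2 fold change of Fos between 0.69 and 0.99, of Jun between 0.49 and 0.67 and of Atf3 between 1.45 and 1.95. The highest adjusted p of a rise was 0.0379, for Jun. Batf and Batf3 passed in none of their alternatives (lowest adjusted p 0.0888 and 0.297; a filter of 50 left Batf3 untested). Over all loci 1640 rose and 1235 fell, so 57% of calls were higher, against 1901 falls and 42.6% with upper-quartile scaling and 2060 falls and 39.2% with CPM scaling. These scalings moved the median by -0.05 and -0.07. edgeR called 2839 loci. Leaving out a library gave 603 to 1714 rises and 266 to 1542 falls, fewest without a WT library, when the spread rests on the KO pair. The ranges of rises and falls were 4 to 13 and 0 to 3 for the other bZIP factors, 2 to 11 and 0 to 6 for the upstream kinases, 8 to 15 and 0 to 1 for genes with AP-1 sites and 13 to 21 and 0 to 6 for the other immediate-early genes. These lists had 33, 43, 32 and 33 tested loci, in the same order. With libraries left out in turn, 4.38% to 12.5% of all tested loci rose and 1.93% to 11.2% fell. For the upstream kinases, the 2 rises without WT replicate 1 and the 6 falls without KO replicate 1 were near the shares of those fits. These 2 counts therefore say nothing particular about that list. Of the 43 tested upstream kinases and factors, 5 fell with upper-quartile and with CPM scaling and 4 with DESeq2. In these settings 13.8%, 15% and 10.9% of all tested loci fell, so these counts say nothing particular about the list. The labels number the replicates alike in both genotypes but do not say that a number marks a shared source. Deviations of same-numbered libraries correlated at 0.25 across loci. A replicate block also splits the libraries by their sex-linked transcripts. With this block 3439 loci passed and 8 AP-1 loci rose, when 13.8% of all tested loci rose. In the same fit 4 upstream kinases fell, when 11.1% of all tested loci fell. Reversed signs were limited to neighbours that did not pass. With upper-quartile and CPM scaling Mysm1 went to -0.024 and -0.036 and AK021325 to -0.037 and -0.049. With libraries left out in turn Mysm1 ranged from -0.0069 to 0.066, AK021325 from -0.025 to 0.056, Lsm4 from -0.028 to 0.014 and AI837181+Bles03 from -0.196 to 0.085. The cause of these differences was not tested. Few reads stand behind Batf3 (12 to 45 per library), Batf2 (8 to 24) and Fam71a (0 to 44).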
